A study of Mus musculus with 16 samples.

Results

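Complement is a set of blood and tissue proteins that mark particles and cells for removal and recruit immune cells. The 9 genes described here encode its recognition, amplification and control steps: the 3 chains of C1q (C1qa, C1qb, C1qc), C4b and C3, the alternative pathway proteins factor B (Cfb) and properdin (Cfp), the C1 inhibitor (Serping1) and the C3a receptor (C3ar1). They were taken from a given list of 9 names (C1QA, C1QB, C1QC, C3, C4B, CFB, CFP, SERPING1 and C3AR1), matched to the gene names of the array without regard to case. All 9 were found, each by its current symbol and each with 1 probe, among 17916 genes and 25697 probes on the array, and all 9 passed the filter on dim probes that left 11050 genes for testing.

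C1q is the recognition molecule of the classical pathway. Each C1q molecule is built from A, B and C chains, and in tissues macrophages are its main source. Binding of C1q activates the proteases C1r and C1s, which cleave C4 and C2, and all pathways meet at the cleavage of C3. The C1 inhibitor shuts off C1r and C1s. Factor B forms the alternative pathway convertase with C3b, and properdin stabilises it. White fat has long been known as a site of the alternative pathway, since adipocytes secrete factor D (adipsin), and stromal cells and adipocytes of fat make C3, factor B and C1 inhibitor.

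The arrays measured inguinal and epididymal white adipose tissue (iWAT and eWAT) of diet-induced obese, singly housed male C57BL/6J mice, all fed Research Diets D12492, with 60% of energy as fat. The 4 scoparia mice received the diet with 1% (w/w) extract of Artemisia scoparia, a plant of the wormwood family, for 4 weeks, and the 4 control mice received it without the extract. All mice were 17 weeks old at the start and 21 weeks old at the end. Each depot of each of the 8 mice, as numbered in the labels, gave 1 bead array, so that each of the 4 groups (iWAT scoparia, iWAT control, eWAT scoparia and eWAT control) held 4 arrays. The samples are whole tissue, so fewer cells of a type and less RNA per cell cannot be told apart. No lean or low-fat group is part of the design used here.

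Values below are log2 normalized intensities. A difference of 1 is a 2-fold difference, errors are SD over 4 arrays for a group and SE for a difference, and no gene's level is set against another's, since probes differ in brightness. A probe counts as detected on an array when its detection p-value, a comparison with negative control beads, was under 0.05. A gene is said to have passed the threshold when its Benjamini-Hochberg adjusted p over all 11050 genes, from limma's moderated test, was under 0.05.

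Between 50.5% and 56.2% of all probes were detected on an array. All 10 adipocyte markers were detected in every group, and their mean lay between 11.1 and 11.9 in the 4 groups. Of 8 mesothelial markers, which mark the lining of the epididymal fat pad, 6 were detected on no iWAT scoparia array and 6 on no iWAT control array, and 0 of 8 were missing in either eWAT group. The iWAT control arrays 1 and 4 stood apart from the other iWAT arrays on the second principal component (48.7 and 34.2, against -13.8 or lower), and eWAT control array 2 stood apart from the other eWAT arrays on the first (-9.32, against 23.4 or higher). Values without these arrays are given below for some of the results, not for all of them.

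The genes of the C1q chains lie side by side on chromosome 4 in the RefSeq annotation of assembly GRCm38.p6, in the order C1qb, C1qc, C1qa. C3, C4b and Cfb lie on chromosome 17, Cfp on X, Serping1 on chromosome 2 and C3ar1 on chromosome 6. The build behind the array's probes is not stated in the labels or headers, so the assembly served for names and for the upstream sequences only. The 250 bases before the start site are shown for C1qb and C1qc, the pair of members that tracked each other most closely over the arrays, and for C3, on which the pathways converge. The sequences are RefSeq's, read 5′ to 3′ on the gene's strand, which is the minus strand for all 3 genes. They span chr4:136886201-136886450 for C1qb, chr4:136892915-136893164 for C1qc and chr17:57228137-57228386 for C3. The C1qc gene is annotated up to position 136892936, so the last bases of its stretch lie within the annotated gene, unlike those of C1qb and C3. Capitals mark matches, on either strand, to 3 motifs: GAGGAA, a core bound by PU.1 and other Ets factors of myeloid cells, TGCTGA, a part of the site of Maf factors, and TTGCNNAA, a C/EBP core.
C1qb: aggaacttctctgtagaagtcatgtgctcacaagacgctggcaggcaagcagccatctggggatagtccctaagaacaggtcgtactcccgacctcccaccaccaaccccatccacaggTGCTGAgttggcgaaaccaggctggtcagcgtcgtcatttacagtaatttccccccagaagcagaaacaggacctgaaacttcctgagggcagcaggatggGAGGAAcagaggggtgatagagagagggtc
C1qc: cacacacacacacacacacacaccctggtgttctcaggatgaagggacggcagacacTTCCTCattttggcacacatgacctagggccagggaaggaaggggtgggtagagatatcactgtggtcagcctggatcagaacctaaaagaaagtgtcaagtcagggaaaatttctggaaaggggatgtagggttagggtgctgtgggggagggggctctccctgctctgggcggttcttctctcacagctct
C3: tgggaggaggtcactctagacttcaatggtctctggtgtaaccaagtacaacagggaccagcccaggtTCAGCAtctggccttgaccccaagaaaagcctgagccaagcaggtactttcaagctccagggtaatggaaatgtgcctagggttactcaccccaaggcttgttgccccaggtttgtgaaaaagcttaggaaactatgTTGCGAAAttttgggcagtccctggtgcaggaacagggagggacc
C1qb held GAGGAA and TGCTGA once each, C1qc held GAGGAA on the opposite strand (TTCCTC), and C3 held TGCTGA on the opposite strand (TCAGCA) and the C/EBP core as TTGCGAAA. None of these matches overlapped another. Of 32851 promoters of the same length in the table, 23.3% held GAGGAA, 16.1% held TGCTGA and 9.56% held the C/EBP core, so that each motif is common. A match describes letters and shows no binding. Upstream sequences of 5 members were in the table (also Cfp, with no match, and C3ar1, with TCAGCA).

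**Figure D1:**
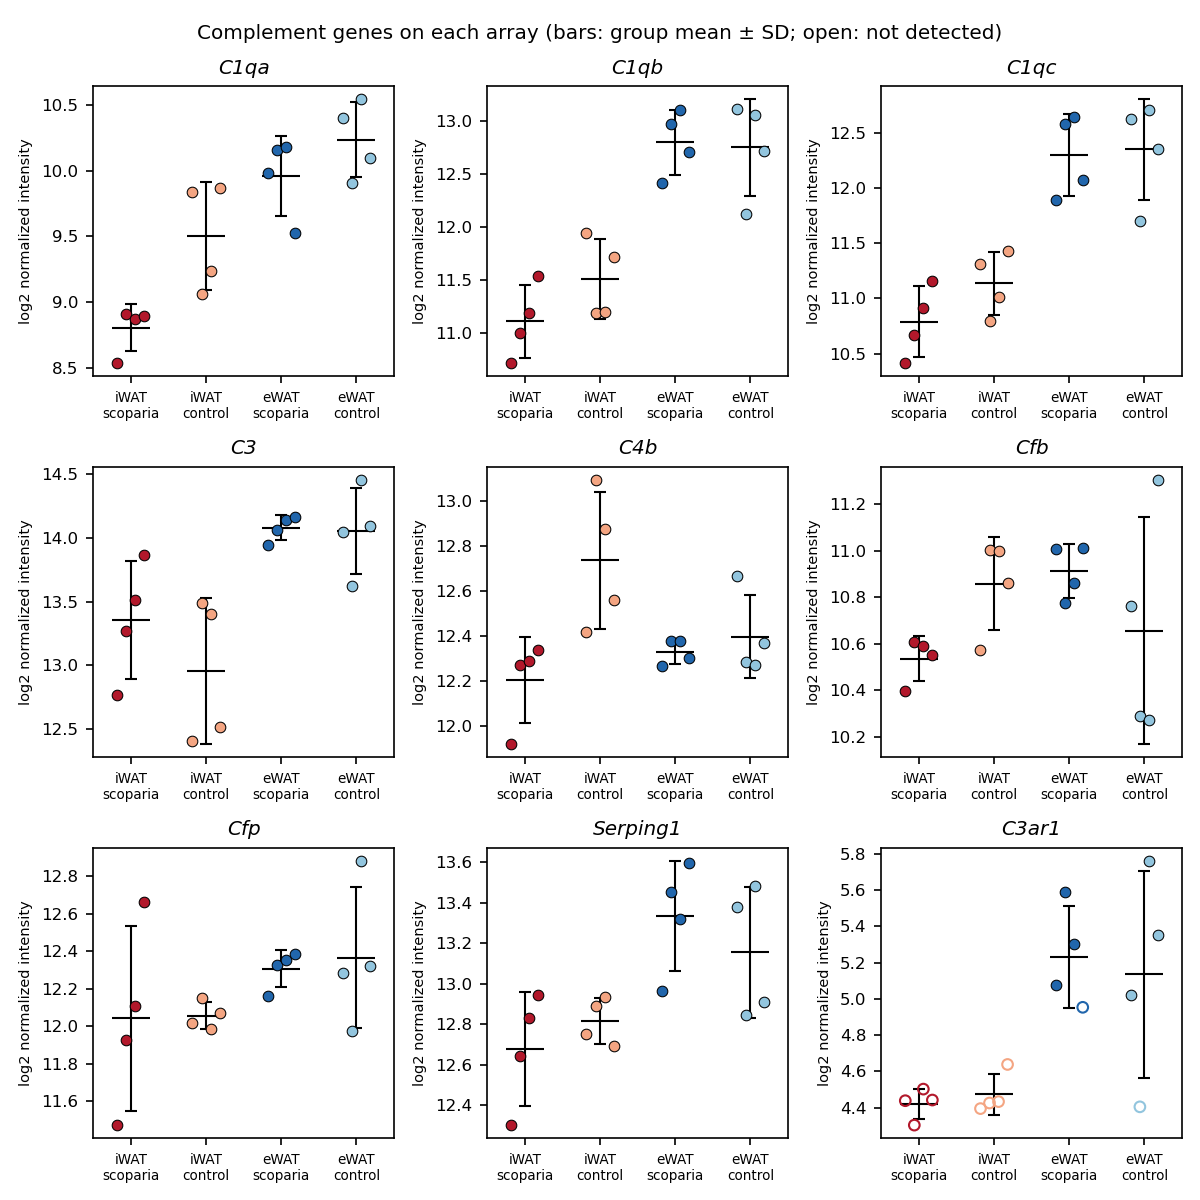
Log2 normalized intensity (vertical axis, own scale for each gene) of the 9 complement genes on 16 arrays, in iWAT scoparia, iWAT control, eWAT scoparia and eWAT control. Each point is 1 array, open where the probe was not detected, and bars give the group mean ± SD (n = 4). The 3 C1q genes are higher on the eWAT arrays than on the iWAT arrays of the same diet, without overlap, and C4b and C1qa are lower in iWAT scoparia than in iWAT control, also without overlap.

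The 3 C1q genes were lower in iWAT than in eWAT in mice on either diet. C1qb showed the largest differences between depots among the 9 genes in both diets. C1qb read 10.71, 11.00, 11.19 and 11.53 on the iWAT scoparia arrays, and 12.41, 12.97, 13.10 and 12.70 on the eWAT scoparia arrays. The same gene read 11.94, 11.18, 11.19 and 11.71 on the iWAT control arrays, and 13.11, 12.12, 13.05 and 12.71 on the eWAT control arrays. Every iWAT array lay below every eWAT array of the same diet. The lowest eWAT array was control array 2, the array that stood apart. The difference, iWAT minus eWAT, was -1.69 ± 0.25 in scoparia mice (3.22-fold lower in iWAT, limma adjusted p = 0.000565) and -1.24 ± 0.25 in control mice (2.36-fold lower, adjusted p = 0.00405).

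C1qc, the partner chain, behaved alike. It averaged 10.79 ± 0.32 in iWAT scoparia and 12.30 ± 0.37 in eWAT scoparia (SD, n = 4 each), a difference of -1.51 ± 0.25 with a limma adjusted p of 0.00105. In control mice it averaged 11.14 ± 0.28 in iWAT and 12.35 ± 0.46 in eWAT, a difference of -1.21 ± 0.25 with an adjusted p of 0.00398. The depots did not overlap in either diet. C1qb and C1qc passed the threshold between depots in both diets under all 26 alternative settings tried, including the one that leaves out eWAT control array 2 and the one that leaves out iWAT control arrays 1 and 4 together.

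C1qa followed the same order with smaller differences. It read 8.53, 8.91, 8.87 and 8.89 in iWAT scoparia, 9.84, 9.06, 9.24 and 9.87 in iWAT control, 9.98, 10.16, 10.18 and 9.52 in eWAT scoparia, and 10.40, 9.91, 10.55 and 10.10 in eWAT control. The iWAT scoparia arrays were the lowest of all 16, and the eWAT arrays were above the iWAT arrays of the same diet without overlap. The depot difference was -1.16 ± 0.22 in scoparia mice (2.23-fold lower in iWAT, limma adjusted p = 0.0025) and -0.74 ± 0.22 in control mice (1.67-fold lower, adjusted p = 0.0238). The call in scoparia mice held under all 26 alternatives, and the one in control mice under 21 of 26, with adjusted p between 0.00901 and 0.0957.

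C3, the protein on which all pathways converge, was also lower in iWAT. It read 12.76, 13.27, 13.51 and 13.87 in iWAT scoparia and 13.95, 14.07, 14.14 and 14.16 in eWAT scoparia. It read 12.40, 13.49, 13.41 and 12.52 in iWAT control and 14.05, 13.63, 14.45 and 14.09 in eWAT control. The depots did not overlap in either diet, and the lowest control arrays were iWAT control arrays 1 and 4, the arrays that stood apart. The difference was -1.10 ± 0.27 in control mice (2.14-fold lower in iWAT, limma adjusted p = 0.0107) and -0.73 ± 0.27 in scoparia mice (adjusted p = 0.106, not past the threshold). Without iWAT control arrays 1 and 4 the control difference was -0.61 (adjusted p = 0.157, where alternatives ranged from 0.00415 to 0.157), and the scoparia difference, unchanged in size, had an adjusted p of 0.0371 (range over alternatives 0.000633 to 0.265). The depot call for C3 thus changed in either diet without those arrays. It also changed with them kept. With only the arrays compared the control call was lost (limma adjusted p = 0.0584) and the scoparia call gained (0.0422). The scoparia call was also gained with equal medians (0.0148) and with array weights (0.000633).

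Serping1, the inhibitor of C1r and C1s, read 12.30, 12.64, 12.83 and 12.94 in iWAT scoparia and 12.96, 13.45, 13.32 and 13.60 in eWAT scoparia. It read 12.75, 12.89, 12.93 and 12.69 in iWAT control and 13.38, 12.84, 13.48 and 12.91 in eWAT control. The depots did not overlap in scoparia mice and did in control mice. The difference was -0.65 ± 0.19 in scoparia mice (1.57-fold lower in iWAT, limma adjusted p = 0.0393) and -0.34 ± 0.19 in control mice (adjusted p = 0.198). The scoparia call held under 20 of 26 alternatives, with adjusted p between 0.00127 and 0.118. It was lost when iWAT scoparia array 1, 2 or 3 or eWAT scoparia array 2, 3 or 4 was left out.

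C3ar1, the receptor for the fragment C3a, was detected on 0 of 4 iWAT scoparia arrays, 0 of 4 iWAT control arrays, 3 of 4 eWAT scoparia arrays and 3 of 4 eWAT control arrays. Its measured means were 4.42 in iWAT scoparia, 4.47 in iWAT control, 5.23 in eWAT scoparia and 5.13 in eWAT control. The iWAT value is only a bound there, taken per array as the higher of the probe's own value and the lowest signal among detected probes. Against that bound, C3ar1 was at least 1.19-fold higher in eWAT scoparia than in iWAT scoparia (adjusted p = 0.0317 in the limma fit), and no fold can be given for control mice (adjusted p = 0.0446). The control call was lost under 20 of 25 alternatives (adjusted p 0.00282 to 0.262), among them the fit with the animal as a replicate block (adjusted p = 0.0559), and the scoparia call under 8 of 25 (0.000199 to 0.574). The measured control difference was -0.66, and without iWAT control arrays 1 and 4 it was -0.70 (adjusted p = 0.128).

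The other 3 members did not pass the threshold between depots in either diet. C4b, whose product is cleaved by C1s in the classical pathway, averaged 12.20 ± 0.19 in iWAT scoparia, 12.73 ± 0.30 in iWAT control, 12.33 ± 0.06 in eWAT scoparia and 12.40 ± 0.18 in eWAT control. Its depot difference was -0.13 ± 0.17 in scoparia mice (limma adjusted p = 0.718) and 0.34 ± 0.17 in control mice (adjusted p = 0.136). In control mice it passed the threshold without iWAT control arrays 1 and 4, with a difference of 0.59 and an adjusted p of 0.0373 (range over alternatives 0.00504 to 0.381). C4b has a close paralog, C4a, whose own probe was too dim to test, and whether the C4b probe also reads C4a was not tested.

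Cfb, the protease of the alternative pathway convertase, averaged 10.54 ± 0.10 in iWAT scoparia, 10.86 ± 0.20 in iWAT control, 10.91 ± 0.12 in eWAT scoparia and 10.66 ± 0.49 in eWAT control. Its depot difference was -0.38 ± 0.20 in scoparia mice, where the depots did not overlap (limma adjusted p = 0.278), and 0.20 ± 0.20 in control mice (adjusted p = 0.459). Cfp, which stabilises that convertase and is made by myeloid and lymphoid cells, averaged 12.04 ± 0.49 in iWAT scoparia, 12.06 ± 0.07 in iWAT control, 12.31 ± 0.10 in eWAT scoparia and 12.36 ± 0.38 in eWAT control. Its depot difference was -0.26 ± 0.22 in scoparia mice (adjusted p = 0.535) and -0.31 ± 0.22 in control mice (adjusted p = 0.305).

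Of the 8 members detected in every group, 4 passed the threshold in scoparia mice, all lower in iWAT (C1qa, C1qb, C1qc and Serping1), beside 10.6% of all genes called in either direction and 6.24% called lower. In control mice 4 of 8 passed, again all lower (C1qa, C1qb, C1qc and C3), beside 24.8% of all genes called and 11.7% called lower. C3ar1 is left out of these counts, since it passed the filter on dim probes only through the eWAT arrays, where it is high. The depots did not overlap for 6 of the 8 members in scoparia mice and for 4 in control mice, against 24.9% and 17.9% of all genes. The median difference of the 8 members was -0.69 in scoparia mice and -0.54 in control mice, against 0.02 and 0.08 over all genes tested. Mice of the 2 diets share no arrays, and depots of one mouse come from the same animal.

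**Figure D2:**
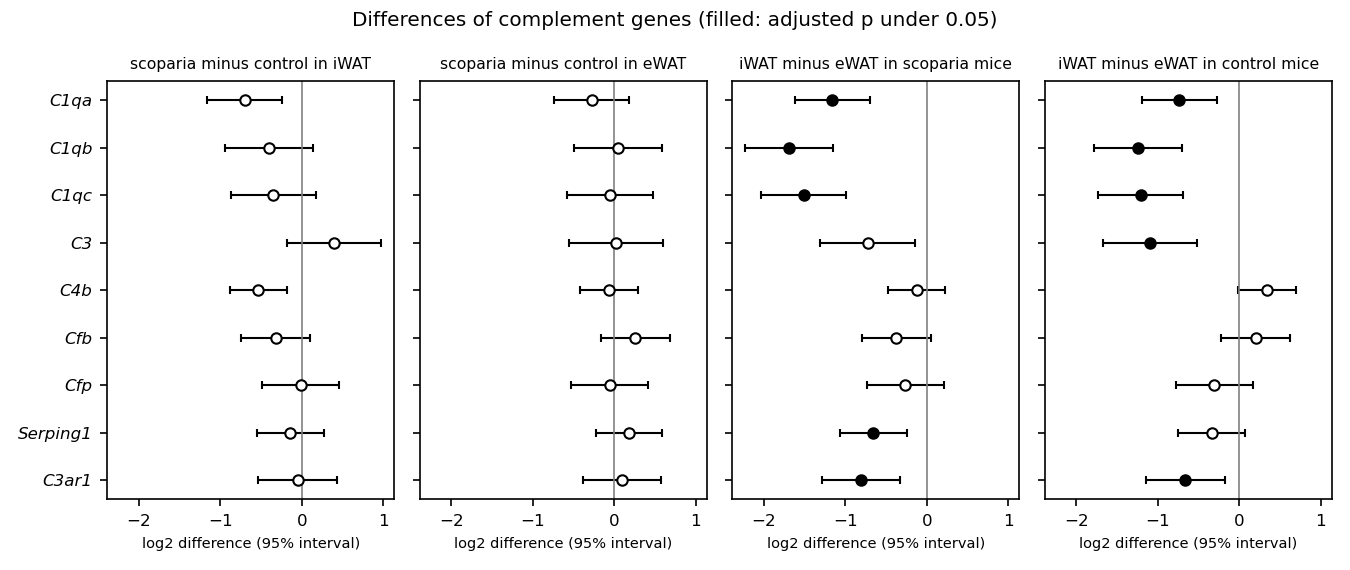
Differences in log2 intensity of the 9 complement genes with 95% intervals from limma, for scoparia minus control within each depot and for iWAT minus eWAT in scoparia and in control mice. Filled points have an adjusted p under 0.05. C1qa, C1qb, C1qc and C3ar1 are filled in both depot panels, and neither diet panel holds a filled point. C3ar1 was not detected on any iWAT array, so the size of its depot difference is not settled.

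The order of the group means, from high to low, was eWAT control, eWAT scoparia, iWAT control and iWAT scoparia for C1qa and C1qc. For C1qb the eWAT groups changed places (12.80 ± 0.30 in eWAT scoparia and 12.75 ± 0.46 in eWAT control). For all 3 genes the eWAT neighbours overlapped and differed by at most 0.28 in size, and the iWAT neighbours overlapped for C1qb and C1qc but not for C1qa. For C3, eWAT scoparia and eWAT control differed by 0.03, and iWAT scoparia and iWAT control followed, overlapping. Serping1 was highest in eWAT scoparia, followed by eWAT control, iWAT control and iWAT scoparia, and each neighbour overlapped the next. C4b was highest in iWAT control, and the remaining groups lay between 12.20 and 12.40.

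Feeding the extract was tested in each depot. In iWAT, 0 of 9 members passed the threshold in the limma fit, beside 8.8% of all genes called. An unadjusted p under 0.05 was found for 2 of 9 members, beside 3626 of 11050 genes. The 2 members were C1qa and C4b. They were also the only members whose scoparia and control arrays did not overlap in iWAT, against 13.4% of all genes without overlap. The difference, scoparia minus control, was negative for 7 of the 8 members detected in iWAT, with a median of -0.34 against -0.06 over all genes. Of all genes, 45.6% had a positive difference. In the same comparison 6 of 6 B cell markers and 7 of 7 T and NK cell markers had positive differences, of which 0 and 1 passed the threshold, and the groups overlapped in the list means. The T and NK cell mean was 9.38 ± 1.30 in iWAT scoparia and 8.13 ± 1.13 in iWAT control. Their part in the members' values was not tested.

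C1qa, listed by array above, averaged 8.80 ± 0.18 in iWAT scoparia and 9.50 ± 0.41 in iWAT control (SD, n = 4 each). The difference was -0.70 ± 0.22 (95% interval -1.16 to -0.24), with a limma adjusted p of 0.0529. It passed the threshold under 6 of 26 alternatives, with adjusted p between 0.0227 and 0.548, among them the fit without eWAT control array 2 (0.0425). The highest C1qa values in iWAT were on control arrays 1 and 4, and without both the difference was -0.35 (adjusted p = 0.548).

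C4b read 11.92, 12.27, 12.29 and 12.34 in iWAT scoparia, and 12.42, 13.09, 12.87 and 12.56 in iWAT control. All scoparia arrays lay below all control arrays, and the control arrays nearest to them were 1 and 4. The difference was -0.53 ± 0.17 (95% interval -0.88 to -0.18), with a limma adjusted p of 0.0530. It passed under 5 of 26 alternatives, with adjusted p between 0.0117 and 0.177, among them the fit without eWAT control array 2 (0.0463). Without iWAT control arrays 1 and 4 the difference was -0.78 (adjusted p = 0.106). The same 2 arrays thus made the C1qa difference larger and the C4b difference smaller.

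The other members of iWAT were less clear. C1qb differed by -0.40 ± 0.25 (limma adjusted p = 0.276) and C1qc by -0.35 ± 0.25 (adjusted p = 0.331), and without iWAT control arrays 1 and 4 by -0.08 and -0.12. Cfb differed by -0.32 ± 0.20 (adjusted p = 0.266). C3 was the one member with a positive difference, 0.40 ± 0.27 (adjusted p = 0.313), which was -0.10 without those arrays and -0.12 when arrays were scaled to equal medians. Serping1 differed by -0.14 ± 0.19, Cfp by -0.01 ± 0.22 and C3ar1, not detected in iWAT, has no fold. Scaling arrays to equal medians moved the median of all genes in this comparison to -0.16, against -0.06, and under it C1qa (-0.81), C4b (-1.02) and Serping1 (-0.62) passed the threshold.

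In eWAT, 0 of 9 members passed the threshold in the limma fit, beside 0% of all genes. An unadjusted p under 0.05 was found for 0 of 9 members, beside 654 of 11050 genes. The scoparia and control arrays overlapped for all 9 members, beside 5.14% of all genes without overlap. The differences ranged from -0.28 ± 0.22 for C1qa (95% interval -0.74 to 0.18) to 0.26 ± 0.20 for Cfb (-0.17 to 0.68). For C1qb the difference was 0.05 ± 0.25 with an interval of -0.49 to 0.59, and for C3 it was 0.03 ± 0.27 with an interval of -0.55 to 0.60. A change in eWAT of the size seen for C1qb between depots lies outside this interval. Whether the extract acted differently on the members in the 2 depots was tested by the difference of the diet effects. It passed for 0 of 9 members, beside 0.0543% of all genes (0.0452% higher and 0.00905% lower). Its unadjusted p was under 0.05 for 0 of 9 members, beside 1793 of 11050 genes. Cfb came nearest, with -0.58 ± 0.28 (adjusted p = 0.322), followed by C4b with -0.47 ± 0.24 (adjusted p = 0.333).

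Markers of several cell types moved with the depot differences. The mean of 12 macrophage markers, which include Adgre1, Cd68 and Csf1r and none of the complement genes, averaged 8.97 in iWAT scoparia (8.71 to 9.16) and 10.3 in eWAT scoparia (10.2 to 10.5). In control mice it averaged 8.88 in iWAT (8.78 to 9.11) and 10.1 in eWAT (9.27 to 10.5). Of the 12 markers, 9 were called lower in iWAT in scoparia mice and 9 in control mice, while Cd163 was not lower in either diet (0.37 in scoparia mice and 0.22 in control mice, iWAT minus eWAT). No macrophage marker was missing on all arrays of a group except Cx3cr1, which was detected on 0 of 4 iWAT control arrays. Of 12 stromal progenitor markers, 1 was called lower and 1 higher in iWAT in scoparia mice, and 2 lower and 3 higher in control mice, with group means of 10.8 in all 4 groups. Of 8 mesothelial markers, 8 were called lower in iWAT in scoparia mice (median -2.50) and 7 in control mice (median -2.25). All 8 endothelial markers had positive differences in both diets (medians 0.76 and 0.63, with 2 and 3 called), as had all 8 skeletal muscle markers (medians 2.03 and 2.53, with 0 and 2 called). All 6 B cell markers were also positive in scoparia and control mice (medians 4.00 and 1.72, with 6 and 2 called higher). Of 7 T and NK cell markers, 7 and 6 were positive (medians 3.20 and 1.89), with 6 and 4 called higher and 0 and 1 called lower. Of 10 adipocyte markers, 9 were positive in each diet (medians 0.39 and 0.50, with 0 and 4 called higher). The part of these cell types, macrophages included, in the members' differences was not tested. Between the diets in iWAT, the macrophage mean was 8.97 ± 0.19 in scoparia and 8.88 ± 0.15 in control, and its markers went both ways. Mertk was higher in scoparia (1.14 ± 0.27, limma adjusted p = 0.0269), while Cd14 (-0.78 ± 0.24, adjusted p = 0.0513) and Fcgr1 (-0.56 ± 0.32, adjusted p = 0.225) were negative without overlap. Their part in the C1qa values was not tested either.

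**Figure D3:**
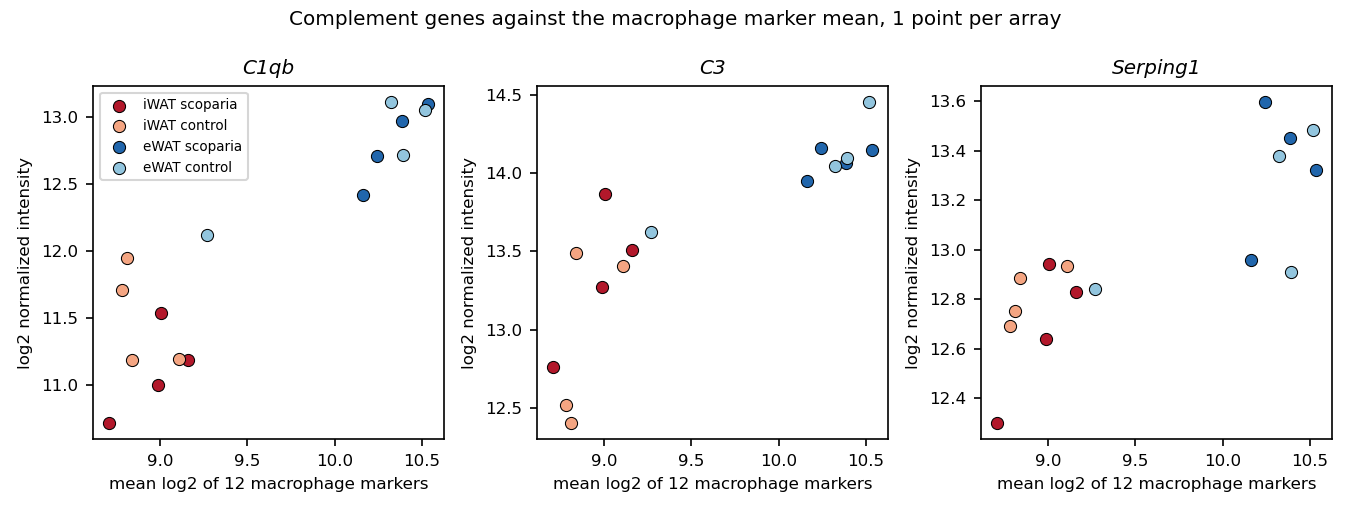
Log2 normalized intensity of C1qb, C3 and Serping1 (vertical axes) against the mean log2 intensity of 12 macrophage markers (horizontal axes), 1 point per array. In eWAT, control array 2 has the lowest macrophage mean (9.27) and the lowest C1qb (12.12), and in iWAT the C1qb values do not follow the macrophage mean (r = -0.09 over 8 arrays).

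Within a depot, each member was set against the macrophage mean and the stromal progenitor mean over 8 arrays, 34 relations in all, C3ar1 in iWAT left out since it was not detected there. In eWAT, C1qc correlated with the macrophage mean with r = 0.82 (exact permutation p = 0.000967, adjusted p = 0.011) and rho = 0.88 (exact permutation p = 0.00724, adjusted p = 0.121). Without the 2 arrays farthest from the median r was 0.75. C1qb had r = 0.86 (exact permutation p = 0.00283, adjusted p = 0.024) and rho = 0.74 (exact permutation p = 0.0458, adjusted p = 0.195), and without the 2 farthest arrays, eWAT control array 2 among them, r was 0.57. C3 and C3ar1 had r = 0.86 each in eWAT (adjusted exact permutation p of 0.0302 and 0.0275), and rho of 0.71 and 0.76 (adjusted exact permutation p of 0.196 and 0.195). Without the 2 farthest arrays these r values were 0.51 and 0.72, so the relation of C1qb and C3 rests largely on such arrays. C3ar1 was itself not detected on eWAT scoparia array 4 and eWAT control array 2. With the authors' normalized intensities its r with the macrophage mean was 0.48 (adjusted exact permutation p = 0.378).

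C1qb and C1qc also followed the stromal progenitor mean in eWAT, although this mean varied little there (10.6 to 10.9). For C1qc r was 0.98 (exact permutation p = 0.000149, adjusted p = 0.00506) and rho 0.90 (exact permutation p = 0.00456, adjusted p = 0.121), and for C1qb r was 0.97 (exact permutation p = 0.000769, adjusted p = 0.011) and rho 0.81 (exact permutation p = 0.0218, adjusted p = 0.185). Without the 2 farthest arrays r was 0.96 and 0.94. In iWAT none of the 16 relations passed. C1qa, C1qb and C1qc had r of -0.23, -0.09 and 0.06 with the macrophage mean (exact permutation p of 0.564, 0.831 and 0.886). Without the 2 farthest arrays r was -0.66, -0.59 and -0.44, and with each diet's mean taken off -0.03, 0.07 and 0.26. With the stromal progenitor mean r was negative in iWAT, unlike in eWAT (-0.28, -0.58 and -0.41). Without the 2 farthest arrays it was -0.12, -0.12 and -0.04, and over the alternatives it reached 0.32, 0.15 and 0.22. No rho passed after adjustment in either depot. With arrays scaled to equal medians 3 relations passed by r, against 6 here. Under that scaling C1qb and C1qc with the stromal progenitor mean were lost (r of 0.91 and 0.80, adjusted exact permutation p of 0.0738 and 0.0911), as were C3 and C3ar1 with the macrophage mean (adjusted exact permutation p of 0.0738 each), and Serping1 with the stromal progenitor mean was gained (r = 0.90, adjusted exact permutation p = 0.032).

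Among the members themselves, 64 pairs were computed within depots. C1qb and C1qc correlated in iWAT with r = 0.95 and rho = 0.98 (exact permutation p = 0.000397 for each, adjusted p = 0.0127), and in eWAT with r = 0.97 (exact permutation p = 0.000273, adjusted p = 0.0127) and rho = 0.90 (exact permutation p = 0.00456, adjusted p = 0.073). Without the 2 farthest arrays r was 0.96 in iWAT and 0.91 in eWAT. C3 and Cfp correlated in eWAT with r = 0.95 (exact permutation p = 0.00246, adjusted p = 0.0393) and rho = 0.98 (exact permutation p = 0.000397, adjusted p = 0.0127), and r was 0.97 without the 2 farthest arrays. C4b and Cfb also passed in iWAT by r, where C4b separates the diets, so no pooled value is given.

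The genes most like each member over all 16 arrays, leaving out unnamed models, are given as a description, since arrays share a depot. Beside each other (r = 0.99), C1qb and C1qc were most like Csf1r (0.98 and 0.97), the receptor of the macrophage growth factor, with P2rx4 and Adam8 next (0.97 to 0.98). Cd68, a lysosomal macrophage marker, was the fifth for C1qb (0.98), and Fcgr3, an IgG receptor, for C1qc (0.97). C1qa was most like Pld3 (0.96), Ninj1, Gabarap and Vat1 (0.95 each) and Cln8 (0.93). Genes like C3 included Acsl5 (0.96), an acyl-CoA synthetase, Uhrf2 and the lysozyme gene Lyz2 (0.95 each) and Asah1 (0.94), a lysosomal ceramidase. Cfp was most like Nrros (0.95), followed by Slc25a45, Myo9b, Nuak2 and Lst1 (0.91 to 0.92). Serping1 was most like Aebp1 (0.94) and Timp2 (0.89), both genes of stromal cells and matrix, followed by Idua, Abr and Atf3 (0.88 to 0.89). C3ar1 was most like Serpinb12, Slc11a1, Fhdc1, Fam83f and Smim3 (0.95 each). C4b had weaker matches, with Prtn3 (0.84), Cyp4f14 (0.78), AI987944 and Sctr (0.75 each) and Clec16a (0.70). So had Cfb, with the gene named SIP1 on the array (0.78), Wif1 (0.74), Pbld2 (0.71), Olfr702 (0.69) and Zfp446 (0.68).

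Of 49 other complement genes listed, 43 had a probe and 29 were tested. In iWAT, the extract comparison called 1 of 29 higher and 1 of 29 lower, beside 4.41% and 4.39% of all genes. Cd55, which protects cells by dissociating the C3 convertase, averaged 10.63 ± 0.48 in iWAT scoparia and 9.93 ± 0.24 in iWAT control, a difference of 0.70 ± 0.21 (limma adjusted p = 0.0494). Fcna, a ficolin that starts the lectin pathway, averaged 8.94 ± 0.08 in iWAT scoparia and 9.72 ± 0.42 in iWAT control, a difference of -0.78 ± 0.20 (adjusted p = 0.0334). Cd55 passed under 9 of 26 alternatives (adjusted p 0.0204 to 0.422) and Fcna under 19 of 26 (0.0142 to 0.310). Without iWAT control arrays 1 and 4 neither passed (0.49 and adjusted p = 0.422 for Cd55, -0.57 and adjusted p = 0.310 for Fcna). In eWAT 0 of 29 passed. At an unadjusted p under 0.05 stood 1 of 29, beside 654 of 11050 genes, which was Fcna (-0.60 ± 0.20, adjusted p = 0.568). The difference of the diet effects passed for 0 of 29. At an unadjusted p under 0.05 stood 1 of 29, beside 1793 of 11050 genes, which was Cd55 (0.70 ± 0.30, adjusted p = 0.260).

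Between depots, 9 of 29 passed in scoparia mice (2 higher and 7 lower in iWAT, beside 4.35% and 6.24% of all genes) and 11 of 29 in control mice (3 higher and 8 lower, beside 13.1% and 11.7%). The genes called include Itgam, C5ar1 and Colec12 in both diets and Cr2 in scoparia mice, which were dim in some groups. The counts are therefore a description only. Of the 8 receptors tested, Vsig4, Itgax, Itgb2, Cd93 and C1qbp were detected on all arrays. Vsig4, Itgax and Itgb2 were called lower in iWAT in each diet. Cd93 and C1qbp were called in neither diet, with differences of -0.64 and 0.22 in control mice (limma adjusted p of 0.190 and 0.424). Vsig4, the complement receptor of tissue macrophages, averaged 5.90 ± 0.69 in iWAT scoparia and 8.53 ± 0.29 in eWAT scoparia, a difference of -2.62 ± 0.34 (6.16-fold lower in iWAT, limma adjusted p = 0.00018), and -2.84 ± 0.34 in control mice (7.16-fold lower, adjusted p = 7.34e-05). Itgax, the alpha chain of complement receptor 4, differed by -2.58 ± 0.31 in scoparia mice and -2.35 ± 0.31 in control mice. Its beta chain Itgb2 differed by -2.04 ± 0.35 and -1.89 ± 0.35, and both genes passed in both diets (adjusted p of at most 0.00207). Itgam, the alpha chain of complement receptor 3, also passed in both diets, but it was detected on 1 of 4 arrays of each iWAT group, so the size of its difference is not settled. It was -1.80 in scoparia mice and -1.92 in control mice, and -0.65 and -0.72 without background correction. The same setting gave -1.47 and -1.54 for Vsig4 and -1.54 and -1.42 for Itgax, with the calls kept. Itgam, C5ar1, Colec12 and Cr2 were each detected on at most 1 array of some group, and passed the filter on dim probes mainly through the depot where they are high.

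C5ar1, the C5a receptor, was detected on 0 of 4 iWAT scoparia arrays and on all eWAT scoparia arrays, at least 2.45-fold higher in eWAT scoparia than in iWAT scoparia (limma adjusted p = 0.00882). In control mice it was detected on 1 of 4 iWAT arrays, so its size is not settled: the difference was -1.68 (adjusted p = 0.00574) and ranged from -2.19 to -0.64 over 25 alternatives, 1 of which lost the call. Cr2, the complement receptor 2 of B cells, went the other way. It was detected on all iWAT scoparia arrays and on 0 of 4 eWAT scoparia arrays, at least 3.41-fold higher in iWAT scoparia (adjusted p = 0.0109), with iWAT scoparia arrays spread from 5.10 to 8.57. In control mice Cr2 was detected on 2 of 4 iWAT arrays and on 0 of 4 eWAT arrays. The measured difference, iWAT minus eWAT, was 0.88 ± 0.56 and did not pass the threshold (limma adjusted p = 0.245). The iWAT control arrays ranged from 4.59 to 6.66, on both sides of the eWAT control bound of 4.98, so no fold is given. The mean of 6 B cell markers was 9.45 in iWAT scoparia (7.66 to 11.0), 7.61 in iWAT control (5.73 to 9.46), 5.40 in eWAT scoparia (5.31 to 5.53) and 5.50 in eWAT control (5.05 to 6.27). The part of B cells in the Cr2 difference was not tested.

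Among the recognition proteins and proteases, Fcna was lower in iWAT in both diets (-0.81 ± 0.20 in scoparia mice, limma adjusted p = 0.0175, and -0.63 ± 0.20 in control mice, adjusted p = 0.0360). Colec12, a membrane-bound collectin, was lower in iWAT, with -0.63 ± 0.19 in scoparia mice (adjusted p = 0.0422) and -1.06 in control mice (adjusted p = 0.00178), where it was detected on 1 of 4 iWAT arrays. Without background correction these values were -0.21 and -0.32, and the scoparia call was lost under 11 of 25 alternatives (adjusted p 0.00209 to 0.157). C1s1, the protease that C1q activates and Serping1 blocks, was lower in control mice (-0.67 ± 0.19, adjusted p = 0.0197), and in scoparia mice its difference was -0.53 ± 0.19 (adjusted p = 0.0890). Cfd, which encodes factor D (adipsin), was higher in iWAT in control mice (1.00 ± 0.27, adjusted p = 0.0152), with 0.76 ± 0.27 in scoparia mice (adjusted p = 0.0859). The membrane inhibitors Cd59b (0.77 ± 0.25, adjusted p = 0.0379) and Cd59a (0.58 ± 0.20, adjusted p = 0.0445) were higher in iWAT in control mice, and Cd55 in scoparia mice (0.75 ± 0.21, adjusted p = 0.0315). With the animal as a replicate block, Fcna (adjusted p = 0.0678) and Cd59a (adjusted p = 0.0723) no longer passed in control mice. Over 26 alternatives the control call was lost under 9 for Fcna (adjusted p 0.0200 to 0.130) and under 15 for Cd59a (0.00674 to 0.143). Without eWAT control array 2 the Fcna difference in control mice was -0.53 (adjusted p = 0.0695), and its call ended. Cd59b was lost under 9 of 26 alternatives (0.0181 to 0.328), C1s1 under 5 (0.0111 to 0.0828), Cfd under 3 (0.000384 to 0.0756) and Cd55 in scoparia mice under 7 (0.003 to 0.108). Without iWAT control arrays 1 and 4, the control differences were 0.47 for Cd59b (adjusted p = 0.328), 0.59 for Cd59a (adjusted p = 0.143) and -0.60 for C1s1 (adjusted p = 0.0742), so that all 3 calls ended.

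**Figure D4:**
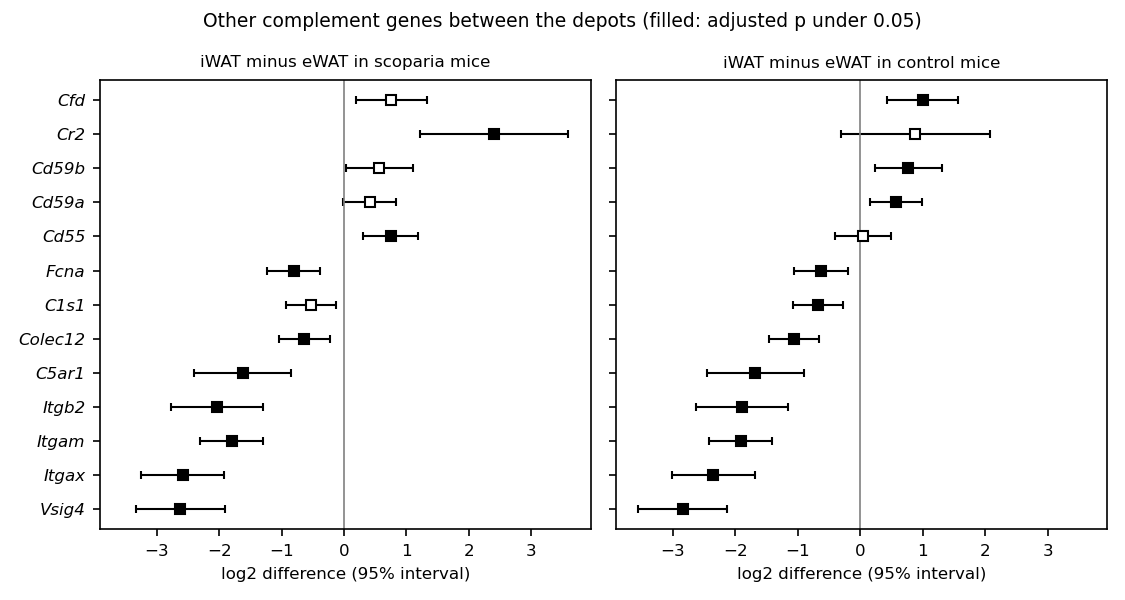
Differences in log2 intensity, iWAT minus eWAT, of the 13 other complement genes called in at least 1 comparison, in scoparia mice and in control mice, with 95% intervals from limma. Filled squares have an adjusted p under 0.05, and Cr2 and C5ar1 have groups in which they were not detected. The receptors Vsig4, Itgax, Itgam, Itgb2 and C5ar1 lie farthest to the left in both panels.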

How the data were processed

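RNA of 16 adipose samples (400 ng each, per the labels) was read on bead arrays. The table that the authors deposited from the scanner gives 25697 probes a linear intensity and a detection p-value on every array, per the file headers. The authors also deposited normalized intensities. Their steps are not described in the labels or headers. GenomeStudio and limma 3.18.13 stand in the submitters' processing notes without a role. This second table was an alternative only, with values under 16 set to 16.

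Scanner intensities were background-corrected by the normexp model of limma 3.58.1 (R 4.3.3), with the detection p-values in place of control beads and an offset of 16, then quantile-normalized and put on the log2 scale. The filter kept 15052 probes whose detection p was under 0.05 on 4 or more arrays. The kept probe of highest mean stood for its gene (11050 genes). RefSeq GRCm38.p6 updated the array's gene names: 20736 probes matched by symbol, 3872 by synonym, 104 had synonyms of several genes and 985 had no match. Upstream sequences are RefSeq's, of the same assembly.

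Group means were fitted by lmFit on all 16 arrays, moderated by eBayes, and compared with adjusted p under 0.05 as the threshold. The same code was tested on simulated data. The pairing of depots comes from the animal numbers in the labels. Samples of one number correlated with values between -0.21 and 0.32 in their deviations from the group means. The p-values rest on the spread between mice within the groups, shared by all 4 groups. For depot differences the main fit does not use the pairing of depots by mouse. Only the alternative with the animal as a replicate block uses it. The number of arrays limits the precision. Correlations used two-sided exact permutation tests over the 8 arrays of a depot.

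The members and the lists were chosen with earlier results of these data known. Named were all 9 members, the other complement genes past the threshold in any comparison, and the 5 genes of highest correlation with each member. Cd93 and C1qbp are named besides, as receptors detected on all arrays. One item that this rule selects is not reported here. Cell types are given by their list means. Alternatives were no background correction, scaling to equal medians, the authors' normalized values, other filters on dim probes, the mean of a gene's probes, only the arrays compared, array weights, the animal as a replicate block, and leaving out each array. Leaving out iWAT control arrays 1 and 4 together was chosen after seeing the data.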

Additional observations from a re-analysis of the deposited data

Results flagged for a closer look

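For each of the 36 sets of 4 arrays (9 genes in 4 groups), the gap of the highest or the lowest array to its nearest neighbour was set against the whole range of the group, and 3 sets exceeded Dixon's critical value, where chance gives about 1 in 20. C1qa on iWAT scoparia array 1 was 8.53, below the other 3 arrays at 8.87 to 8.91. C4b on the same array was 11.92, below the other 3 at 12.27 to 12.34. C3ar1 on iWAT control array 4 was 4.64, above the other 3 at 4.40 to 4.43, and the probe was not detected on any of these arrays.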

How the results depend on the processing

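Of 1155 values of the 45 member results under the alternatives, 1058 kept direction and side of the threshold, 41 lost a call, 20 gained one and 36 changed sign, of which 0 had been past the threshold. For other complement genes 478 of 565 values were unchanged in this sense, and 87 lost the call. The number of genes called moved as follows. For scoparia minus control in iWAT (972) it was 1896 with equal medians, 0 with only the arrays compared, 2154 with array weights, 4 without iWAT control arrays 1 and 4, and 0 to 3052 when each array was left out in turn. For scoparia minus control in eWAT (0) it was 1 with the authors' normalized values, 147 with array weights and 0 to 14 with each array left out. For iWAT minus eWAT in scoparia mice (1170) it was 737 with probes detected on all arrays, 2080 with only the arrays compared, 3693 with array weights and 686 to 1470 with each array left out. For iWAT minus eWAT in control mice (2743) it was 718 with only the arrays compared, 1184 without iWAT control arrays 1 and 4, and 1498 to 4081 with each array left out. For the difference of the diet effects (6) it was 14 without background correction, 17 with equal medians, 13 with the authors' values, 3 with no filter, 1 with probes detected on all arrays, 17 with the mean of a gene's probes, 626 with array weights, 1 without iWAT control arrays 1 and 4, and 1 to 432 with each array left out. With the animal as a replicate block it was 0, and the counts of the other comparisons were 958, 0, 1103 and 2418. Among the members the block changed only the call of C3ar1 between depots in control mice.

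Sign changes touched results that had not passed. With equal medians, scoparia minus control was -0.12 for C3 in iWAT, and 0.092 for C1qc, 0.083 for C4b and 0.058 for Cfp in eWAT, iWAT minus eWAT in control mice was 0.026 for Cfp and 0.00351 for Serping1, and the difference of the diet effects was -0.25 for C3 and -0.56 for Cfp. That scaling moved the median of all genes in the difference of the diet effects to -0.24, against -0.08. With the authors' values C3ar1 was -0.078 in eWAT and 0.078 in the difference of the diet effects. With array weights C1qb was -0.043 and C3 -0.00349 in eWAT, and Cfp was -0.084 in the difference of the diet effects. Without iWAT control arrays 1 and 4, C3 was -0.10 in iWAT and -0.12 in the difference of the diet effects. With each array left out, scoparia minus control in iWAT ranged from -0.22 to 0.18 for Cfp and -0.078 to 0.00363 for C3ar1. In eWAT it ranged from -0.16 to 0.18 for C1qb, -0.27 to 0.083 for C1qc, -0.12 to 0.16 for C3, -0.11 to 0.023 for C4b, -0.19 to 0.11 for Cfp and -0.15 to 0.30 for C3ar1. The difference of the diet effects ranged from -0.16 to 0.24 for Cfp and -0.36 to 0.10 for C3ar1. Of the correlations with marker means, 6 passed by r, 3 with equal medians and 5 with the authors' values, where C3ar1 with the macrophage mean was lost. The fits with only the arrays compared hold fewer arrays, and the other causes were not tested. The slide was not run as a block, since the headers used here give none.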
